A study of Mus musculus with 19 samples.

Results

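MicroRNA and small nucleolar RNA (snoRNA) loci were examined in brain RNA-seq libraries from Fabp7 knockout (KO) and wild-type (WT) mice with and without maximal electroshock. Gene symbols that start with Mir and a digit, Mirlet, Snord or Snora were taken, and loci with a mean of at least 0.2 CPM (reads scaled to a total of 1000000 reads in genes per library) over the 19 libraries were kept. The name rule matched 1290 of 24394 gene symbols, and 65 of these reached the mean. A further 723 had 0 reads in every library and 502 had reads but a mean under 0.2 CPM. The members were therefore chosen by their mean level over all libraries, and that level is given as a description. Just inside the threshold were Mir341 (0.204 CPM), Mir7036 (0.203 CPM) and Snord89 (0.202 CPM), and just outside were Mir1898 (0.195 CPM), Snord52 (0.189 CPM) and Mir219a-2 (0.188 CPM).

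The libraries came from 5 KO MEST, 5 WT MEST, 4 KO sham and 5 WT sham mice, with 1 library per mouse. All were male mice of the C57BL/6NJ strain, sampled at ZT20 (in the dark phase), and the tissue was a block of hippocampus and cortex from 1 hemisphere. MEST (maximal electroshock seizure threshold) mice were given 1 shock per day through ear clips, starting at 20 mA and raised by 2 mA each day, until both hind limbs extended. Sham mice were handled alike without shock. The KO mice lack Fabp7, a fatty acid binding protein of astrocytes and neural stem cells, and the sources used here describe no restriction of the knockout to a cell type. Ages were 18.9 to 19.4 weeks in KO MEST, 17.4 to 18.0 weeks in WT MEST, 17.3 to 17.9 weeks in KO sham and 15.9 to 16.3 weeks in WT sham mice. In each pairwise comparison below the ages of the 2 groups did not overlap, so that age and group cannot be told apart there. KO sham and WT MEST mice overlapped in age, but differ in both genotype and treatment and were not compared.

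MicroRNAs are cut from a hairpin in a longer primary transcript, first in the nucleus by Drosha and Dgcr8 and then in the cytoplasm by Dicer1, and the mature strand guides an Argonaute protein to target mRNAs through its seed. Box C/D snoRNAs guide methylation of ribosomal RNA and box H/ACA snoRNAs guide its pseudouridylation, and most are released from introns of host genes during splicing. The libraries were made from poly(A)-selected RNA that was fragmented, so mature microRNAs and free snoRNAs were not targeted. Reads in these loci can come from primary transcripts, from unspliced introns or retained-intron transcripts of the host, or from similar sequence elsewhere, and a level here is not a level of mature microRNA or snoRNA.

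The 65 members comprised 36 microRNA precursors, 5 microRNA host genes, 14 box C/D snoRNAs and 10 box H/ACA snoRNAs. Apart from the host genes, the loci were 55 to 178 bases long. Of all members, 64 were placed by symbol on GRCm38 (GENCODE vM21), and Mir143hg was matched through its RefSeq name Carmn. On the same strand, 9 loci overlapped an exon of a coding transcript of their host and 12 an exon of a noncoding transcript. Another 17 overlapped an exon of a retained-intron transcript only, and 15 lay in an intron. An overlap could cover only part of the locus. Where several genes spanned a locus, a gene among the deposited symbols was preferred as host. A further 3 had a gene on the opposite strand only, 4 lay outside other genes and 5 were transcription units of their own. At 13 members, stretches of 31 bases also occurred in transcripts of genes that do not span the locus.

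Mature sequences were found in the RefSeq table (GRCm38.p6) for 32 of the 36 precursors. They gave 51 sequences with 51 different seeds, so that no pair among these 32 precursors shared a seed. Seeds of the other precursors, among them Mir124a-2, and of hairpins carried by the host genes were not compared. The precursors whose locus passed a test below are shown here, to identify a microRNA that each locus encodes, with the seed (bases 2 to 8) in capitals. Mir3064, Mir3060, Mir7-1, Mir9-2, Mir377, Mir3072 and Mir3101 have a mature sequence from each arm of the hairpin, with different seeds. Only the arm named is shown for these, and the other arm is left out.
miR-703 (chr5:98475616-98475636, minus strand): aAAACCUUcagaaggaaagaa
miR-3064-5p (chr11:106782736-106782757, minus strand): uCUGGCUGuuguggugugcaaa
miR-3060-3p (chr11:4139413-4139434, plus strand): cCAUAGCAcagaagcacuccca
miR-8094 (chr17:35251314-35251334, plus strand): aACUGAAGgacaacgagaaga
miR-7a-5p of Mir7-1 (chr13:58392841-58392863, minus strand): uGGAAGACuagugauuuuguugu
miR-9-5p of Mir9-2 (chr13:83738821-83738843, plus strand): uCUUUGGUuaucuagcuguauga
miR-377-3p (chr12:109740553-109740574, plus strand): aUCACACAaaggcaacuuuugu
miR-3072-3p (chr12:109747928-109747949, plus strand): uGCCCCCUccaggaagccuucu
miR-3101-3p (chr7:27176020-27176040, minus strand): uAGCUUUGguggauggucuuu
miR-1900 (chr9:21032261-21032282, minus strand): gGCCGCCCucucugguccuuca
Mir124a-2 and Mir7666, which also passed a test, are named only.

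The snoRNA loci that passed a test are shown as annotated (GENCODE vM21, GRCm38), to show the guide RNA that each locus encodes. For box C/D snoRNAs the capitals mark the C box (ATGATGA or GTGATGA in the first 30 bases) and the last CTGA in the last 30 bases (the D box), and for box H/ACA snoRNAs the last ACA in the last 15 bases, all read on the transcribed strand.
Snord91a (chr11:74905424-74905516, plus strand): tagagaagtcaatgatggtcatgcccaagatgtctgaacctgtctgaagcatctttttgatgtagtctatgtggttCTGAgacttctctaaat
Snord64 (chr7:59978808-59978874, minus strand): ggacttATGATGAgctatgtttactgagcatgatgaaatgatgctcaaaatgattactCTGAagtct
Snord47 (chr1:161038082-161038158, plus strand): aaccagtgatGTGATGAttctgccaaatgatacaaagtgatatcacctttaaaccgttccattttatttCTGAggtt
Snora65 (chr2:32963291-32963420, plus strand): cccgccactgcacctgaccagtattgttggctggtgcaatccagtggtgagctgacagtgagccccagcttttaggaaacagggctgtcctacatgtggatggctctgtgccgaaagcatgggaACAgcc
Snora81 (chr16:23110756-23110933, plus strand): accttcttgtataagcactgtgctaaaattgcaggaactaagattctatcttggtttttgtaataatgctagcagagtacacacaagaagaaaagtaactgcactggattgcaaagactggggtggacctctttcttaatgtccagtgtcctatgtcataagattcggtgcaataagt
These C box letters were found in 57.1% of the member transcripts named Snord and in 69.7% of all 99 annotated ones, the D box letters in 100% and 99.0%, and the ACA in 90.9% of the member transcripts named Snora and in 95.2% of all 42 annotated ones. Snord91a had no match to these C box letters in its window, and Snora81 had no ACA in its last 15 bases.

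Reads in genes numbered 27563987 to 51741037 per library. Fabp7 averaged 0.0433 ± 0.0393 CPM in KO MEST (SD, n = 5) and 14.8 ± 2.10 CPM in WT MEST tissue (n = 5), and 0.125 ± 0.0613 CPM in KO sham (n = 4) and 13.1 ± 1.73 CPM in WT sham tissue (n = 5), as the labels give it. The 8 neuronal markers checked summed to 8900 to 9855 CPM in KO MEST, 9018 to 9630 CPM in WT MEST, 9033 to 9266 CPM in KO sham and 9217 to 9787 CPM in WT sham libraries, and none of the 8 was at 0. Single markers did pass the test: 2 of the 8 neuronal markers fell in KO sham against WT sham, 3 rose and 3 fell in WT MEST against WT sham, 3 rose and 1 fell in KO MEST against WT MEST and 1 rose in KO MEST against KO sham tissue. Of 4 astrocyte markers 2 rose in WT MEST against WT sham tissue, and of 3 oligodendrocyte markers 2 fell in KO MEST against WT MEST and 2 in KO MEST against KO sham tissue. Of 3 microglial markers 1 fell in KO sham against WT sham, 1 fell in WT MEST against WT sham and 1 rose and 1 fell in KO MEST against WT MEST tissue. None of the markers of these cell types was at 0. The 4 choroid plexus markers summed to 1008 to 1410 CPM in KO MEST and 1077 to 1864 CPM in WT MEST libraries. In sham libraries they summed to 1128 to 1794 CPM in KO and 842 to 1387 CPM in WT mice. Of these 1 fell in KO MEST against WT MEST tissue. At least 1 of 4 leptomeningeal markers was called in each comparison. In WT MEST against WT sham 1 thalamic marker rose and 1 blood marker fell. No striatal marker was called, and 2 blood markers were at 0. The oligodendrocyte markers summed to 5099 to 5596 CPM in KO MEST, 5274 to 7113 CPM in WT MEST, 5587 to 6154 CPM in KO sham and 5711 to 6355 CPM in WT sham libraries. The part of these markers in the members' values was not tested. On the first principal component of 16596 genes (16.6% of the variance) values of 20.4 to 30.8 were found for WT sham and of -14.2 to -1.64 for the remaining groups. The WT sham group thus stands apart from the other 3 on this component, and a comparison against it carries that difference. In bulk tissue, fewer cells of a type and less RNA per cell cannot be told apart.

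Levels are given as CPM scaled with TMM factors (trimmed mean of M values) over the 19 libraries. Summed over the 60 members other than host genes, they came to 44.3 to 58.7 CPM in KO MEST, 41.0 to 55.1 CPM in WT MEST, 42.7 to 52.6 CPM in KO sham and 52.8 to 64.3 CPM in WT sham libraries. A gene entered a comparison if its level reached 0.2 CPM in a number of libraries no lower than the size of the smaller group, and a gene was called at a limma p under 0.05 after Benjamini-Hochberg adjustment over all genes tested. The higher group alone can meet this filter, as for Mir703, Mir3060 and Mir377 in WT MEST against WT sham tissue. Such loci count among those tested and called, so the member shares below are a description. Fold changes are on the scale of log2(CPM + 0.1), which understates the change of low loci.

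In KO sham against WT sham tissue, which addresses the loss of Fabp7 without shock, 63 members were tested, and 9 fell and 2 rose. Among all genes tested, 6.19% were called lower and 9.22% higher, against 14.3% and 3.17% of the members. In both directions together these were 15.4% of all genes and 17.5% of the members. The median log2 fold change was -0.27 over the members and 0.000908 over all genes tested. The members that fell were Mir3064, Mir124a-2, Mir3060, Mir7-1, Mir8094, Mir3101, Mir99ahg, Snora81 and Snord64, and those that rose were Mir703 and Snord91a. The 52 tested members that were not called ranged from -1.06 (Mir8112, adjusted p = 0.226) to 0.97 (Snord47, adjusted p = 0.199), and 2 members were not tested.

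In WT MEST against WT sham tissue, which addresses repeated shock up to seizure in WT mice, 61 members were tested, and 14 fell and 3 rose. Among all genes tested, 11.4% were called lower and 13.1% higher, against 23.0% and 4.92% of the members (24.5% and 27.9% in both directions together), and the median was -0.28 over the members and 0.00488 over all genes tested. This comparison has the same WT sham libraries as the one of the sham groups. The 44 tested members that were not called ranged from -0.76 (Mir1900, adjusted p = 0.193) to 1.06 (Mir7666, adjusted p = 0.056), and 4 were not tested.

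In KO MEST against WT MEST tissue, which addresses the loss of Fabp7 in shocked mice, 58 members were tested, and Mir3060 rose and Mir7666 fell. Among all genes tested, 5.65% were called higher and 4.27% lower, against 1.72% of the members in each direction. These all-gene shares ranged from 2.87% to 6.66% higher and from 2.08% to 5.32% lower with 1 library left out. The median was 0.17 over the members and 0.00155 over all genes tested. The 56 others ranged from -1.43 (Mir3113, adjusted p = 0.0868) to 1.10 (Mir1900, adjusted p = 0.112), and 7 were not tested.

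In KO MEST against KO sham tissue, 59 members were tested, and Mir1900 rose and none fell by limma, while 9 members (15.3%) had an unadjusted p under 0.05, against 17.9% of all genes tested. Both edgeR and DESeq2 also called 0 members lower. Among all genes tested, 0.873% were called higher and 0.489% lower, shares that ranged from 0.0553% to 1.77% and from 0.0307% to 0.935% with 1 library left out. The median was 0.15 over the members and 0.00249 over all genes tested. The 58 others ranged from -0.51 (Mir703, adjusted p = 0.167) to 0.99 (Mir8094, adjusted p = 0.22), and 6 were not tested.

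The difference of the electroshock effects (KO MEST minus KO sham, less WT MEST minus WT sham) was tested over all 19 libraries with the 65 members among 16596 genes. It was higher in 11 members and lower in 2 (Mir703 and Snord91a), 16.9% and 3.08% of the members, against 9.65% and 8.95% of all genes tested. In both directions together 20.0% of the members and 18.6% of all genes were called, which is close to the background. The median difference was 0.41 over the members and 0.0093 over all genes tested. The WT sham libraries enter this contrast as well.

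**Figure D1:**
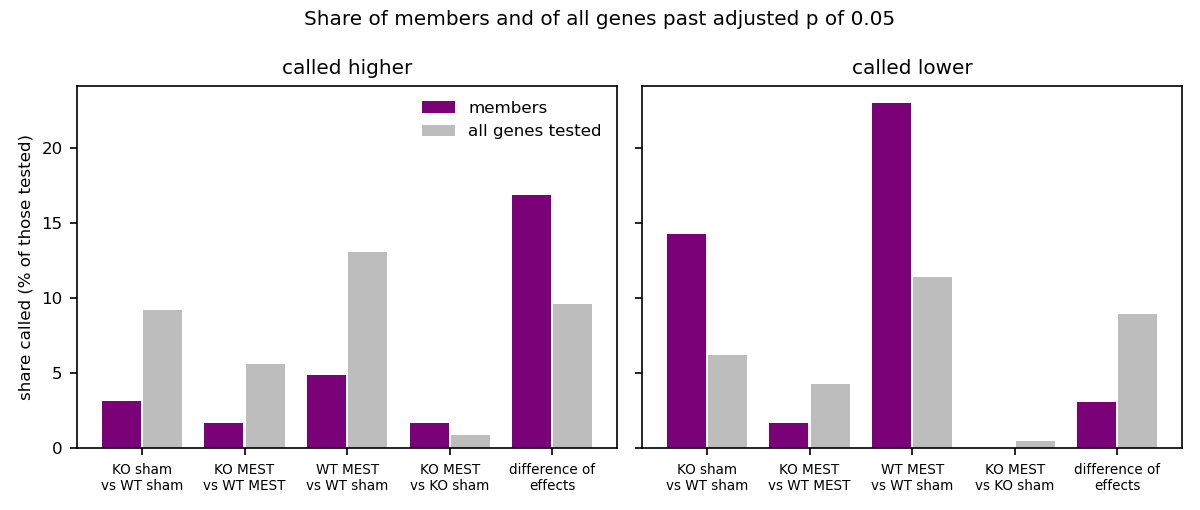
Share of the tested members (purple) and of all genes tested (grey) that passed an adjusted p of 0.05 as higher (left) and lower (right), in percent, by comparison. In WT MEST against WT sham 23.0% of the members and 11.4% of all genes were called lower, and in KO MEST against KO sham at most 1 member was called in either direction.

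**Figure D2:**
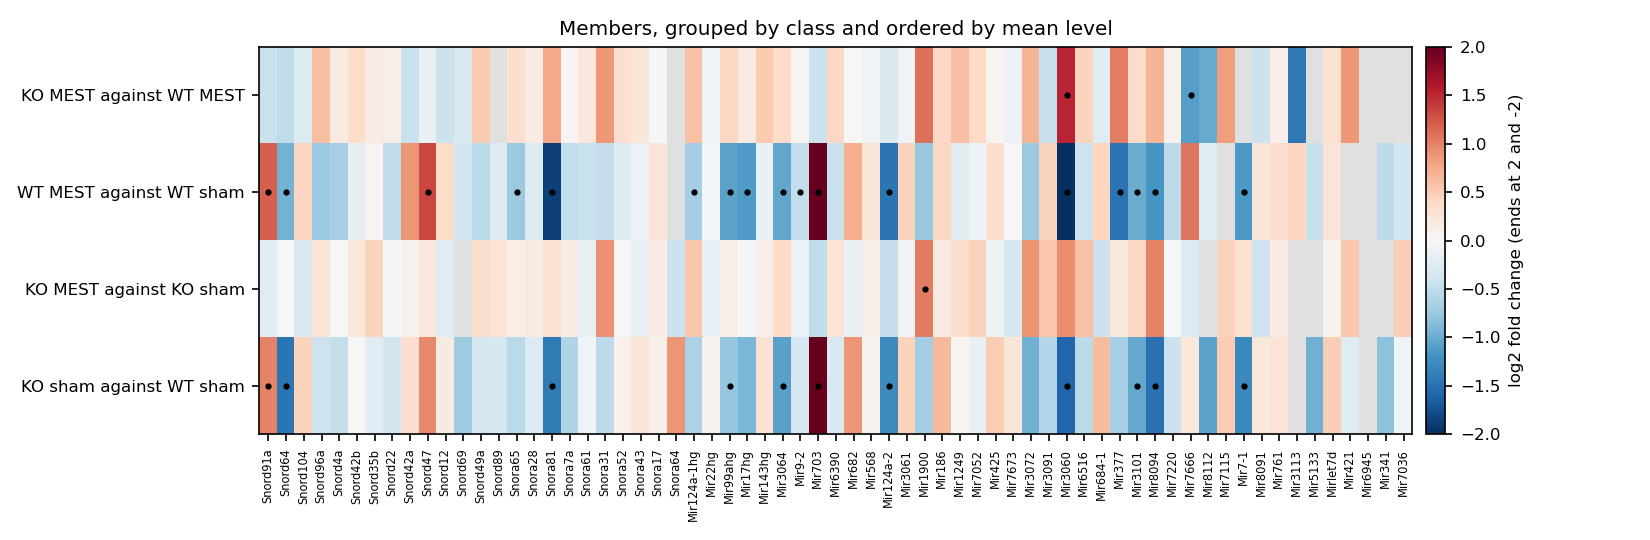
Log2 fold change of each of the 65 members (columns, grouped by class and within a class by mean level) in 4 comparisons (rows), red for higher and blue for lower, with colours ending at 2 and -2, grey where a member was not tested and a dot where it was called. The dots lie mostly in the 2 comparisons against WT sham, 17 of them in WT MEST against WT sham and 11 in KO sham against WT sham. These are 27.9% and 17.5% of the tested members, close to the 24.5% and 15.4% of all genes called there. Smaller shares of all genes were also called in the other comparisons shown, so this pattern is not particular to the members.

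Of the 5 microRNA host genes, which are long noncoding RNAs that carry microRNA hairpins, Mir124a-1hg was the most abundant member. It spans chr14:64587331-64593961 on the plus strand and carries a hairpin of miR-124, a microRNA abundant in neurons. Its levels were 131, 121, 182, 95.6 and 111 CPM in KO MEST, 75.0, 77.4, 68.7, 82.5 and 118 CPM in WT MEST, 69.6, 116, 71.3 and 92.2 CPM in KO sham and 143, 167, 108, 120 and 137 CPM in WT sham libraries. The WT sham and KO MEST groups held the high values, and WT MEST and WT sham overlapped through 1 WT MEST library at 118 CPM. It fell in WT MEST against WT sham tissue (log2 fold change -0.68 ± 0.17 SE, adjusted p = 0.0173). In KO sham against WT sham tissue it had a similar value that was not called (-0.63 ± 0.18, adjusted p = 0.0544), and the difference of the electroshock effects was 1.24 ± 0.28 (adjusted p = 0.005945).

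Mir99ahg, host of the miR-99a and let-7c hairpins, averaged 1.78 ± 0.349 CPM in KO MEST (SD, n = 5), 1.37 ± 0.526 CPM in WT MEST (n = 5), 1.62 ± 0.325 CPM in KO sham (n = 4) and 2.96 ± 1.00 CPM in WT sham tissue (n = 5). It fell in WT MEST against WT sham tissue (-1.07 ± 0.26, adjusted p = 0.00447) and in KO sham against WT sham tissue (-0.78 ± 0.23, adjusted p = 0.0313), and in both the groups overlapped by 1 or more libraries. In KO sham against WT sham tissue the adjusted p ranged from 0.00673 to 0.0984 over 20 alternatives, and it missed 0.05 with no filter and without KO sham replicate 4 or 5 or WT sham replicate 3 or 4. Mir17hg, host of the miR-17 to miR-92a cluster, averaged 0.300 ± 0.168 CPM in WT MEST and 0.738 ± 0.183 CPM in WT sham tissue (SD, n = 5 each) and fell there (-1.13 ± 0.33, adjusted p = 0.0147), a call lost with DESeq2 and without WT MEST replicate 3 (highest adjusted p 0.0511, lowest 0.00537 over 20 alternatives). Mir22hg, the second most abundant member, averaged 18.4 CPM in KO MEST, 19.6 CPM in WT MEST, 20.7 CPM in KO sham and 20.0 CPM in WT sham tissue, with an SD of at most 2.52 CPM, and passed no test. Mir143hg averaged between 0.302 CPM in WT MEST and 0.480 CPM in KO MEST tissue and passed no test either.

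**Figure D3:**
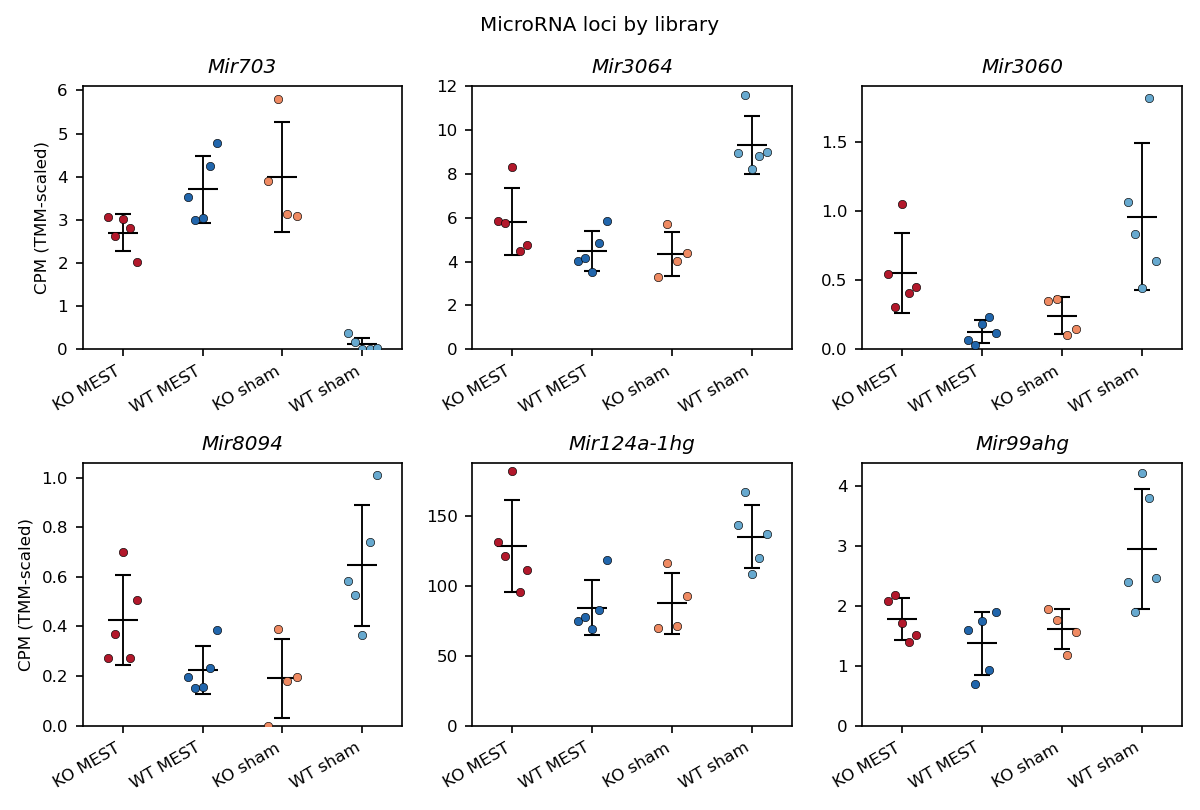
Level of 6 microRNA loci in CPM (TMM-scaled), 1 point per library, for KO MEST, WT MEST, KO sham and WT sham, with bars for mean and SD and each axis starting at 0. For Mir703 the WT sham libraries lie between 0 and 0.368 CPM and all others at 2.01 CPM or above, while for Mir3064 and Mir3060 the WT sham group has the highest mean.

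Among the precursors, Mir703 differed most between groups. The locus lies at chr5:98475556-98475664 on the minus strand, on the strand opposite the gene Cfap299, and 29 of its 79 windows of 31 bases (36.7%) also occur in transcripts of Eef1a1, a translation elongation factor gene. Eef1a1 was 1 of 6 genes elsewhere with such stretches, and the windows shared with it cover 82 of the 109 bases of the hairpin. Mir703 had 112, 128, 103, 103 and 103 reads in KO MEST, 108, 98, 117, 128 and 161 reads in WT MEST, 135, 270, 122 and 125 reads in KO sham and 12, 5, 0, 0 and 1 reads in WT sham libraries. As CPM these were 2.01 to 3.07 in KO MEST, 2.99 to 4.77 in WT MEST, 3.08 to 5.81 in KO sham and 0 to 0.368 in WT sham libraries. The WT sham group lay below each of the other groups with no overlap. Mir703 rose in KO sham against WT sham tissue (4.52 ± 0.42, adjusted p = 8.89e-06) and in WT MEST against WT sham tissue (4.43 ± 0.36, adjusted p = 1.76e-08). It was not called in KO MEST against WT MEST (-0.44 ± 0.16, adjusted p = 0.0833) or in KO MEST against KO sham tissue (-0.51 ± 0.18, adjusted p = 0.167).

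Eef1a1 itself averaged 2228 ± 154 CPM in KO MEST, 1990 ± 65.3 CPM in WT MEST, 2124 ± 176 CPM in KO sham and 2076 ± 126 CPM in WT sham tissue. Its log2 fold change was 0.05 ± 0.06 in KO sham against WT sham (adjusted p = 0.658) and -0.05 ± 0.05 in WT MEST against WT sham tissue (adjusted p = 0.464). Which of the Mir703 reads stem from the locus and which from similar sequence was not tested.

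Mir3064, the most abundant precursor, lies at chr11:106782693-106782759 on the minus strand, in an annotated exon of Ddx5, an RNA helicase that also acts in microRNA processing. Its levels were 5.83, 5.76, 8.33, 4.46 and 4.74 CPM in KO MEST, 4.04, 4.15, 3.5, 4.84 and 5.84 CPM in WT MEST, 3.30, 5.71, 4.01 and 4.40 CPM in KO sham and 8.97, 11.6, 8.22, 8.83 and 8.98 CPM in WT sham libraries. The lowest WT sham library lay above every KO sham and WT MEST library, whereas 1 KO MEST library reached 8.33 CPM. Mir3064 fell in KO sham against WT sham tissue (-1.08 ± 0.15, adjusted p = 0.000173) and in WT MEST against WT sham tissue (-1.04 ± 0.13, adjusted p = 6.41e-06). Ddx5 fell less in the same comparisons, by 0.41 (adjusted p = 0.000333) and by 0.45 (adjusted p = 4.59e-06) on the log2 scale. The 37 windows of 31 bases of the Mir3064 locus all occur in annotated Ddx5 transcripts.

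Mir3060, in an intron of Rnf215 (chr11:4139364-4139446, plus strand), was called in both directions. Its reads numbered 20, 15, 36, 15 and 23 in KO MEST, 2, 1, 7, 7 and 4 in WT MEST, 12, 17, 4 and 6 in KO sham and 35, 27, 12, 54 and 19 in WT sham libraries. WT MEST was the lowest group, with no overlap with KO MEST or WT sham. Mir3060 rose in KO MEST against WT MEST tissue (1.52 ± 0.33, adjusted p = 0.01055), and fell in WT MEST against WT sham (-2.18 ± 0.38, adjusted p = 0.000186) and in KO sham against WT sham tissue (-1.58 ± 0.38, adjusted p = 0.0094). Rnf215, a RING finger protein gene, had log2 fold changes of 0.26, 0.04 and 0.16 in these comparisons, none of them called. Levels per library ran to 1.82 CPM at most, so each value rests on few reads. DESeq2 gave Mir3060 no adjusted p in KO MEST against WT MEST and in WT MEST against WT sham tissue, so both calls were lost with it.

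Mir124a-2 (chr3:17795662-17795770, plus strand, partly in an exon of the noncoding Mir124-2hg) is a further miR-124 locus. Mir124a-2 shares 3 of its 79 windows with transcripts of Mir124a-1hg, and which of its reads stem from similar sequence was not tested. It had 0.520 to 0.818 CPM in KO MEST, 0.298 to 1.24 CPM in WT MEST, 0.581 to 1.77 CPM in KO sham and 2.33 to 2.57 CPM in WT sham libraries. The WT sham libraries lay close together and above every other library. It fell in KO sham against WT sham (-1.27 ± 0.25, adjusted p = 0.002675) and in WT MEST against WT sham tissue (-1.46 ± 0.26, adjusted p = 0.000278), but was not called in KO MEST against WT MEST or KO MEST against KO sham tissue.

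Mir8094 lies partly in an annotated exon of Ddx39b, an RNA helicase of splicing and mRNA export. Mir7-1 lies in an intron of Hnrnpk, an RNA-binding protein gene. Mir3101 lies in a retained-intron transcript of Rab4b, a small GTPase of endosomes, and also in a coding exon of the overlapping gene Gm21983. Mir7-1 had 0.0274 to 0.613 CPM in KO MEST, 0.119 to 0.214 CPM in WT MEST, 0.0515 to 0.232 CPM in KO sham and 0.303 to 0.676 CPM in WT sham libraries, and the WT sham libraries lay above all WT MEST and KO sham libraries. The same order was found for Mir3101. For Mir8094 the groups overlapped, with 0.153 to 0.385 CPM in WT MEST, 0 to 0.388 CPM in KO sham and 0.367 to 1.01 CPM in WT sham libraries. In KO sham against WT sham tissue Mir8094 fell by 1.49 (adjusted p = 0.0235), Mir7-1 by 1.29 (adjusted p = 0.02) and Mir3101 by 1.03 (adjusted p = 0.0362) on the log2 scale. They also fell in WT MEST against WT sham tissue, by 1.18 (adjusted p = 0.0116), 1.15 (adjusted p = 0.0143) and 1.00 (adjusted p = 0.0289). DESeq2 gave no adjusted p there for Mir8094 and Mir7-1, so these calls were lost with it. Over 19 alternatives in the sham comparison the adjusted p of Mir8094 ranged from 0.00562 to 0.0766, missing 0.05 without KO sham replicate 2 or WT sham replicate 5. That of Mir7-1 ranged from 0.0142 to 0.0726, missing it with DESeq2 and without KO sham replicate 4 or 5 or WT sham replicate 2. That of Mir3101 ranged from 0.0144 to 0.124, missing it with a replicate block and without KO sham replicate 3, 4 or 5 or WT sham replicate 1, 2 or 4. For Mir3101 in WT MEST against WT sham tissue it ranged from 0.0105 to 0.0814 over 20 alternatives, missing it with DESeq2 and without WT sham replicate 2 or 4 or WT MEST replicate 2 or 5.

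Mir377 lies wholly and Mir3072 partly in an exon of Mirg. Mirg is a noncoding RNA of the imprinted Dlk1 to Dio3 region on chromosome 12, which carries a large cluster of microRNAs. Mir377 had 0.466, 0.472, 0.789, 0.136 and 0.39 CPM in KO MEST, 0.261, 0.183, 0.0259, 0.199 and 0.148 CPM in WT MEST, 0.203, 0.625, 0.206 and 0.418 CPM in KO sham and 0.614, 0.559, 0.477, 0.876 and 0.506 CPM in WT sham libraries. All WT MEST libraries lay below all WT sham libraries, and Mir377 fell there (-1.47 ± 0.35, adjusted p = 0.00355). The call was lost with DESeq2, which gave Mir377 no adjusted p. Mirg fell in the same comparison (-0.53 ± 0.13, adjusted p = 0.00462) and rose in KO MEST against WT MEST tissue (0.87 ± 0.17, adjusted p = 0.00659), at 13.2 ± 3.57 CPM in KO MEST and 7.05 ± 1.33 CPM in WT MEST tissue (SD, n = 5 each). The difference of the electroshock effects was 1.71 ± 0.50 for Mir377 (adjusted p = 0.0164), 1.65 ± 0.43 for Mir3072 (adjusted p = 0.0074) and 1.22 ± 0.29 for Mirg (adjusted p = 0.00523). Mir341, in an intron of Rian in the same region, was at the threshold level and passed no test.

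Mir9-2 is a locus of miR-9, a microRNA of neural progenitors and neurons, and lies in an exon of the noncoding C130071C03Rik. It averaged 2.39 ± 0.530 CPM in WT MEST and 3.41 ± 0.537 CPM in WT sham tissue (SD, n = 5 each), with overlap, and fell by 0.49 on the log2 scale (adjusted p = 0.0408). The adjusted p ranged from 0.0156 to 0.107 over 21 alternatives and missed 0.05 with no filter, with a replicate block and without WT sham replicate 2, 3, 4 or 5 or any 1 of WT MEST replicates 1 to 4.

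Mir1900, in an exon of the antisense gene Gm47079, was the member called in KO MEST against KO sham tissue. It had 1.45, 1.09, 1.52, 0.898 and 1.42 CPM in KO MEST, 0.228, 0.824, 1.04, 0.132 and 1.13 CPM in WT MEST, 0.608, 0.388, 0.669 and 0.615 CPM in KO sham and 1.07, 0.714, 0.734, 1.08 and 1.38 CPM in WT sham libraries. Each KO MEST library lay above each KO sham library, and the rise was 1.03 ± 0.21 (adjusted p = 0.0362). Its adjusted p ranged from 0.00148 to 0.133 over 20 alternatives, and it missed 0.05 with no filter, with all 19 libraries in 1 fit, with a replicate block, without KO sham replicate 2, 4 or 5 and without KO MEST replicate 1, 2, 3 or 5. Mir7666 lies in an intron of Fgf20, which averaged at most 0.0319 CPM in any group, and opposite an exon of Micu3, whose transcripts hold all 25 of its windows of 31 bases in reverse. Micu3 was not called in KO MEST against WT MEST tissue (-0.08 ± 0.06, adjusted p = 0.397). Mir7666 averaged 0.176 ± 0.109 CPM in KO MEST and 0.479 ± 0.164 CPM in WT MEST tissue (SD, n = 5 each) and fell by 1.11 on the log2 scale (adjusted p = 0.03355). Over 20 alternatives its adjusted p ranged from 0.0209 to 0.115, missing 0.05 with DESeq2, with all 19 libraries in 1 fit, with a replicate block and without KO MEST replicate 3, 4 or 5 or WT MEST replicate 2, 3 or 5.

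For 3 further precursors much of the sequence also occurs in the mRNA of a gene elsewhere. Of the windows of Mir682, 53.0% occur in transcripts of Rpl37a, a ribosomal protein gene, of Mir684-1 98.2% in those of Sumo2, a protein modifier gene, and of Mir8112 94.1% in those of Krcc1. The windows shared with Rpl37a cover 95 of the 96 bases of the Mir682 hairpin, which lies in Gm4149, annotated as a processed pseudogene. Mir682 was not called, at 0.89 ± 0.37 in KO sham against WT sham and 0.73 ± 0.32 in WT MEST against WT sham tissue, while Rpl37a rose by 0.46 (adjusted p = 0.000688) and 0.38 (adjusted p = 0.000252). Mir684-1 had 0.63 ± 0.36 and 0.42 ± 0.35, uncalled, where Sumo2 fell by 0.69 (adjusted p = 3.17e-06) and by 0.71 (adjusted p = 1.37e-08). Mir8112 was not called, nor was Krcc1. Mir6390, partly in an exon of the noncoding Gm6145, was the other precursor among the 10 most abundant members and passed no test, nor did the remaining precursors.

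**Figure D4:**
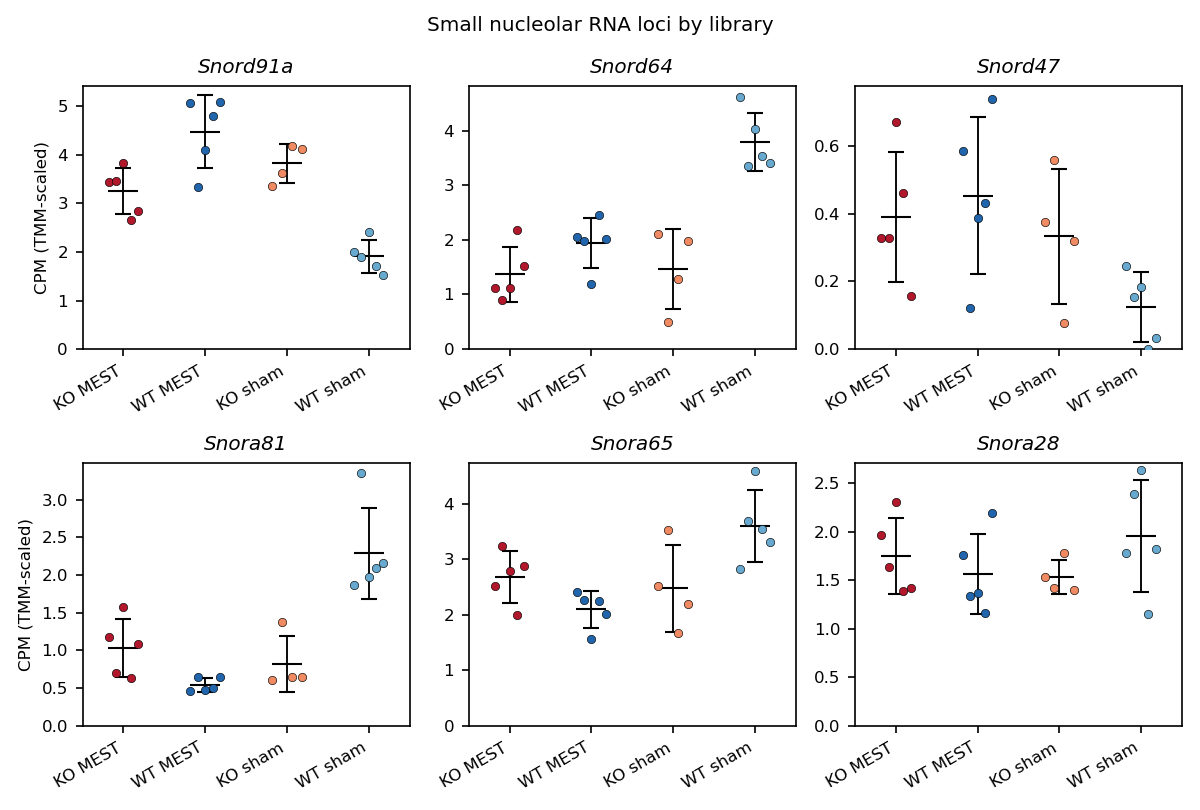
Level of 3 box C/D (top) and 3 box H/ACA snoRNA loci (bottom) in CPM (TMM-scaled), 1 point per library, for KO MEST, WT MEST, KO sham and WT sham, with bars for mean and SD and each axis starting at 0. Snord91a is lowest and Snord64 and Snora81 are highest in the WT sham libraries.

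Among the 14 box C/D snoRNAs, Snord91a was the most abundant and rose where most called members fell. It lies in an intron of Tsr1, a factor in maturation of the small ribosomal subunit. Its levels were 3.45, 3.47, 3.83, 2.67 and 2.85 CPM in KO MEST, 5.06, 3.33, 4.10, 4.80 and 5.10 CPM in WT MEST, 3.36, 3.62, 4.19 and 4.13 CPM in KO sham and 2.00, 1.89, 2.42, 1.72 and 1.52 CPM in WT sham libraries. All WT sham libraries lay below every other library. Snord91a rose in KO sham against WT sham tissue (0.99 ± 0.17, adjusted p = 0.000913) and in WT MEST against WT sham tissue (1.19 ± 0.17, adjusted p = 1.86e-05), and the difference of the electroshock effects was -1.42 ± 0.21 (adjusted p = 4.12e-05). Tsr1 had -0.15 ± 0.06 in the first (adjusted p = 0.107) and fell in the second (-0.21 ± 0.06, adjusted p = 0.0136).

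Snord64 lies in the imprinted region of Snrpn on chromosome 7, in an exon of a transcript annotated to Gm38393. Its levels were 1.12, 0.902, 1.11, 2.18 and 1.52 CPM in KO MEST, 2.05, 1.98, 1.19, 2.45 and 2.02 CPM in WT MEST, 2.11, 0.495, 1.29 and 1.97 CPM in KO sham and 4.61, 3.35, 4.03, 3.54 and 3.41 CPM in WT sham libraries. All WT sham libraries lay above every other library. It fell in KO sham against WT sham (-1.45 ± 0.32, adjusted p = 0.00808) and in WT MEST against WT sham tissue (-0.95 ± 0.18, adjusted p = 0.000498). Snhg14, the snoRNA host transcript of that region, rose in WT MEST against WT sham tissue (0.64 ± 0.15, adjusted p = 0.00524).

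Snord47, 1 of the snoRNAs of Gas5, a snoRNA host gene, had 18, 4, 15, 13 and 25 reads in WT MEST and 8, 5, 5, 0 and 1 reads in WT sham libraries, with overlap, and rose (1.33 ± 0.44, adjusted p = 0.0296). Gas5 fell in that comparison (-0.22 ± 0.05, adjusted p = 0.00458). The adjusted p of Snord47 ranged from 0.00853 to 0.0837 over 20 alternatives and missed 0.05 with DESeq2 and without WT sham replicate 4 or 5 or WT MEST replicate 1, 3, 4 or 5. The other 11 box C/D snoRNAs passed no test. Snord4a, Snord42b and Snord42a, all hosted by the ribosomal protein gene Rpl23a, were among them, at -0.47, -0.01 and 0.34 in KO sham against WT sham tissue, where Rpl23a rose (0.53 ± 0.10, adjusted p = 0.002606).

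Among the 10 box H/ACA snoRNAs, Snora81, in a retained-intron transcript of Eif4a2, an RNA helicase of translation initiation, had the largest fold changes among those called. Its levels were 1.18, 0.697, 1.58, 0.626 and 1.09 CPM in KO MEST, 0.457, 0.641, 0.467, 0.497 and 0.652 CPM in WT MEST, 0.608, 1.38, 0.643 and 0.640 CPM in KO sham and 1.87, 3.35, 1.98, 2.09 and 2.16 CPM in WT sham libraries. All WT sham libraries lay above every other library, and WT MEST was the lowest group by mean. Snora81 fell in KO sham against WT sham (-1.41 ± 0.25, adjusted p = 0.00137) and in WT MEST against WT sham tissue (-1.87 ± 0.23, adjusted p = 2.99e-06). Eif4a2 had -0.11 ± 0.08 in the first (adjusted p = 0.3985) and fell by 0.18 in the second (adjusted p = 0.0233). Stretches of Snora81 and Snora65 also occur in transcripts of 4 and 3 genes elsewhere.

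Snora65, in a retained-intron transcript of the ribosomal protein gene Rpl12, had 2.41, 2.26, 1.56, 2.25 and 2.02 CPM in WT MEST and 2.83, 3.69, 4.59, 3.54 and 3.31 CPM in WT sham libraries, with no overlap. It fell in that comparison (-0.74 ± 0.17, adjusted p = 0.00269), whereas Rpl12 rose (0.21 ± 0.06, adjusted p = 0.0105). The other 8 box H/ACA snoRNAs passed no test, and Snora28 in Eif5 was the most abundant of them.

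The called members were set side by side with their same-strand host genes. Called members were picked by passing the test and hosts were not, which favours larger values in the members, so their sizes are a description. In KO sham against WT sham tissue 40 members had a tested host (37 hosts), and 7 of them were called. Of these 7, the host of 1 (Ddx5 for Mir3064) was called in the same direction and the hosts of 6 were not called. The median size of the log2 fold change was 1.29 for the called members and 0.13 for their hosts, where the members are those that passed the test. In WT MEST against WT sham tissue 11 of 38 members with a tested host were called, and the host was called in the same direction for 3 (Ddx5, Eif4a2 and Mirg), in the opposite direction for 3 (Tsr1, Rpl12 and Gas5) and not called for 5. The medians there were 1.18 for the called members and 0.21 for their hosts. Over all members with a tested host, called or not, the median log2 fold change was -0.34 in KO sham against WT sham tissue, with -0.06 for the hosts, and -0.44 in WT MEST against WT sham tissue, with 0.02 for the hosts. How reads in a locus inside an annotated exon of its host were assigned depends on counting settings not given in the sources used here.

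**Figure D5:**
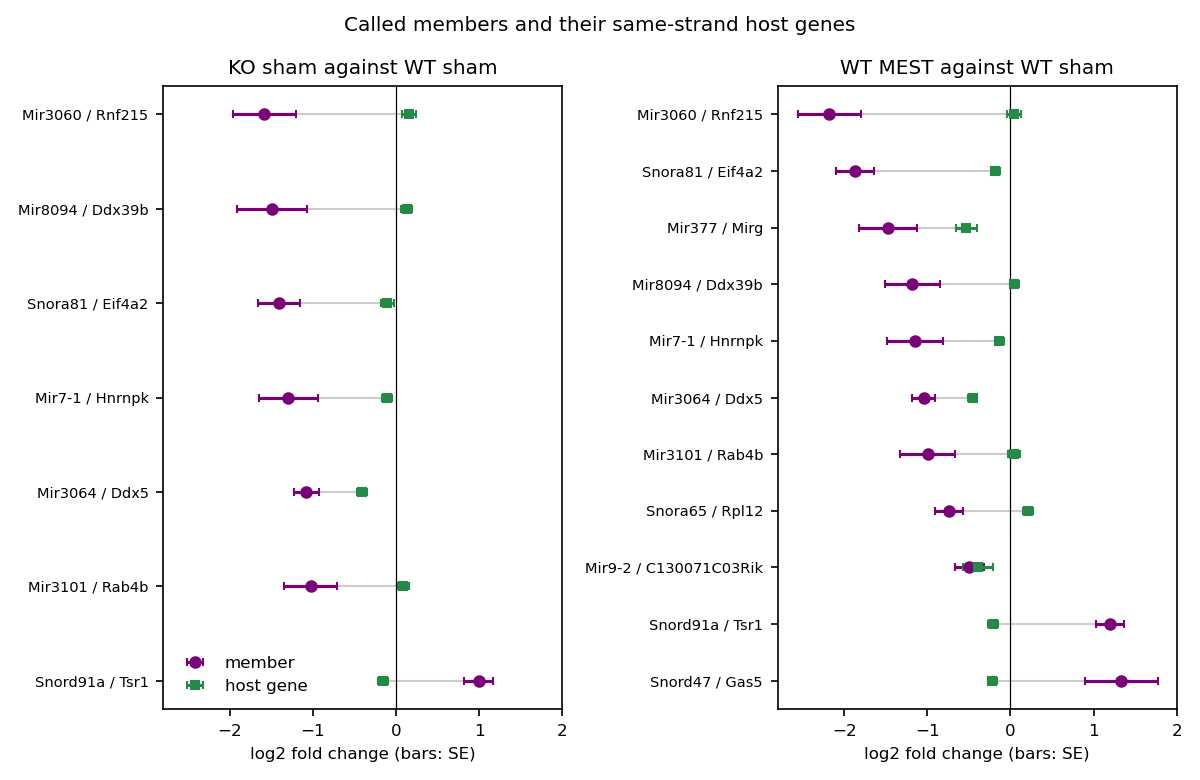
Log2 fold change (x axis, bars for SE) of the called members (purple circles) and of their same-strand host genes (green squares) in KO sham against WT sham (left) and WT MEST against WT sham (right). Member and host lie on the same side of 0 for Mir3064 and Ddx5 in both panels and on opposite sides for Snord91a and Tsr1.

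Across the 19 libraries, the genes of at least 1 CPM whose pattern was most like that of the 3 most abundant called members were found among 14146 genes. For Mir124a-1hg they were Lrrc45 (Pearson r = 0.97), Nxf1 (0.967) and Akap8l (0.965), for Mir3064 they were Neat1 (0.958), Pnisr (0.955) and Cdc7 (0.955), and for Snord91a they were Gnai1 (0.959), Tpd52 (0.951) and Rab11a (0.949). These values describe 19 libraries that share the separation of the WT sham group, and were not tested.

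The counts of the related lists stand against the shares of all genes called, which were 6.19% lower and 9.22% higher in KO sham against WT sham, 11.4% lower and 13.1% higher in WT MEST against WT sham and 4.27% lower and 5.65% higher in KO MEST against WT MEST tissue. In KO MEST against KO sham tissue these shares were 0.489% lower and 0.873% higher, and in the difference of the electroshock effects 8.95% lower and 9.65% higher. The lists are short, and nothing particular to a list is read from its counts. Of the related genes, 19 of the microRNA processing and Argonaute list were tested. In KO sham against WT sham tissue 6 fell and 1 rose, and the median was -0.12, against 0.000908 over all genes tested. Those with the smallest p that fell were Ddx5, Zcchc11 (-0.43, adjusted p = 0.00186), a uridylyltransferase, Tnrc6a (-0.29, adjusted p = 0.0144), a partner of Argonaute proteins, and Drosha (-0.23, adjusted p = 0.01795), the nuclear microRNA nuclease. Ran, the GTPase of nuclear export, rose (0.29, adjusted p = 0.00312). In WT MEST against WT sham tissue 6 fell and 3 rose, with Drosha at -0.33 (adjusted p = 2.675e-05) and Ran at 0.30 (adjusted p = 7.43e-05).

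Drosha averaged 162 ± 6.84 CPM in KO MEST and 125 ± 2.97 CPM in WT MEST tissue (SD, n = 5 each), and rose in KO MEST against WT MEST (0.37 ± 0.05, adjusted p = 0.000367) and in KO MEST against KO sham tissue (0.28 ± 0.06, adjusted p = 0.0411). No other gene of that list passed in KO MEST against KO sham tissue, and Ran was the other one in KO MEST against WT MEST tissue (-0.18, adjusted p = 0.04175). In the difference of the electroshock effects 6 of the 19 tested genes of the list were higher and 1 lower, where 9.65% and 8.95% of all genes were called.

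Of the 5 tested box C/D snoRNP proteins, Nop58, a core protein of these particles, fell in KO sham against WT sham (-0.27, adjusted p = 0.0226) and, with Nop56 (-0.25, adjusted p = 0.00197), in WT MEST against WT sham tissue (-0.36, adjusted p = 0.000534). Nop56 rose in KO MEST against WT MEST tissue (0.29, adjusted p = 0.01335). Of the 4 box H/ACA snoRNP proteins, Dkc1, the pseudouridine synthase, fell in WT MEST against WT sham tissue (-0.25, adjusted p = 0.0137). Of 12 snoRNP assembly genes, 2 fell in KO sham against WT sham tissue (Tcof1 and Ncl), 5 fell and 1 rose in WT MEST against WT sham, 2 rose and 1 fell in KO MEST against WT MEST and 1 fell (Znhit3) in KO MEST against KO sham tissue.

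Of 18 tested snoRNA host genes, 2 fell in KO sham against WT sham (Snhg11 and Snhg3), 6 fell and 2 rose in WT MEST against WT sham and 3 fell in KO MEST against WT MEST tissue. Of 10 tested noncoding host genes of microRNAs, some of which are members, 3 fell in KO sham against WT sham and 7 in WT MEST against WT sham tissue, with medians of -0.50 and -0.60. Meg3, a noncoding RNA of the Dlk1 to Dio3 region, fell in both (-1.04, adjusted p = 0.00124, and -1.14, adjusted p = 0.00469). Of 18 noncoding RNAs kept mostly in the nucleus, 6 fell in KO sham against WT sham tissue and 7 fell and 1 rose in WT MEST against WT sham tissue. Neat1, the scaffold of paraspeckles, averaged 121 ± 21.3 CPM in KO MEST, 107 ± 25.8 CPM in WT MEST, 106 ± 18.6 CPM in KO sham and 206 ± 11.3 CPM in WT sham tissue, and fell in KO sham against WT sham (-0.95, adjusted p = 3.18e-05) and in WT MEST against WT sham tissue (-0.96, adjusted p = 0.00083). Among the genes compared by pattern, Neat1 was the one most like Mir3064, and its part in the members' values was not tested.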

How the data were processed

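Per the labels and the paper's methods, the authors made poly(A)-selected libraries (TruSeq Stranded mRNA), trimmed reads with Trimmomatic 0.39, aligned them to mm10 with HISAT2 2.2.1 and counted genes with featureCounts (Subread 2.0.3). Counting settings for strand and multiple hits are not given in the sources used here. The deposited values are a normalized signal, reads divided by 1 DESeq2 1.36.0 size factor per library, in a table for WT and another for KO mice. The authors' fold changes and p-values in the same tables were not used. Reads were recovered by dividing by each library's step, 100% of values being whole within 0.01, and 27 rows with date symbols were left out (at most 0.384% of a library's values). Libraries were rescaled to CPM with TMM factors (over the compared groups for pairwise tests, over all 19 for levels and the difference), filtered at 0.2 CPM, and tested with limma 3.58.1 (R 4.3.3; trend and robust options) on log2(CPM + 0.1). The test was checked on simulated data, where the share of false calls came out above the nominal threshold. Alternatives were edgeR 4.0.16 and DESeq2 1.42.0 on the recovered reads, median-of-ratios factors, totals without TMM, pseudocounts of 0.5 and 1, no filter, a filter at 1 CPM, all 19 libraries in 1 fit, a replicate block, each library left out and, added after seeing the data, TMM factors over all 19 libraries.

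The members, lists and naming rule were chosen with earlier results of these data known. Named are the 10 most abundant members, per comparison every called member up to 10 per direction by p, the loci next to the threshold, and up to 4 genes per list and direction; hosts, and genes sharing sequence with a member, are named beside it. Replicate numbers do not pair the mice. Python 3.11.15 with pandas 2.3.3 and numpy 2.4.6 handled the tables, and matplotlib 3.10.9 drew the figures.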

Additional observations from a re-analysis of the deposited data

Results flagged for a closer look

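The electroshock effect differed between KO and WT mice, by the test of the difference itself, in 13 members. This is 20.0% of the members, close to the 18.6% of all genes called in the same contrast. On the log2 scale the effect in KO minus that in WT was -4.94 for Mir703, -1.42 for Snord91a, 1.46 for Mir3064, 2.19 for Snora81, 3.11 for Mir3060, 2.18 for Mir8094, 1.24 for Mir124a-1hg, 1.65 for Mir3072, 1.42 for Mir3101, 1.80 for Mir1900, 1.71 for Mir377, 1.21 for Mir99ahg and 0.883 for Snora65. The call for Snora65 was lost without KO sham replicate 4 (adjusted p from 0.0031 to 0.0541 over 28 alternatives). The WT sham group, which is also the youngest, enters each of these differences, and the part of age was not tested.

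In 6 of 96 groups of values of the 24 named members, 1 library lay far from the others, where chance flags about 1 in 20. These were Mir124a-1hg in WT MEST replicate 5 (118 CPM, others 68.7 to 82.5), Mir22hg in WT sham replicate 5 (18.7 CPM, others at least 20.1), Mir3064 in WT sham replicate 2 (11.6 CPM, others 8.22 to 8.98), Mir9-2 in KO MEST replicate 4 (2.97 CPM, others 2.18 to 2.41), Snora81 in KO sham replicate 3 (1.38 CPM, others 0.608 to 0.643) and Snora81 in WT sham replicate 2 (3.35 CPM, others 1.87 to 2.16).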

How the results depend on the processing

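No called member changed direction under any alternative run. The calls of Mir703, Mir3064, Snord91a, Snora81, Snord64 and Mir124a-2 in the 2 comparisons against WT sham passed under every alternative run on them. In KO MEST against WT MEST the members called higher numbered 3 with edgeR, 2 with DESeq2, 2 with a pseudocount of 0.5 or 1, 3 with no filter, 0 with the filter at 1 CPM and 2 with all 19 libraries in 1 fit, and those called lower 2 with DESeq2 and 0 with the filter at 1 CPM, with all 19 libraries in 1 fit and with the replicate block. In WT MEST against WT sham 8 were called lower with DESeq2 and 8 with the filter at 1 CPM, which tests fewer members. DESeq2 gave no adjusted p there for Mir3060, Mir377, Mir8094 and Mir7-1, which then counted as not called. In KO MEST against KO sham 0 were called higher with no filter and with all 19 libraries in 1 fit (1 with the replicate block, where Mir1900 missed the threshold), and in the difference 6 with the filter at 1 CPM. Leaving out 1 library gave 1 to 3 higher and 0 to 3 lower in KO MEST against WT MEST, 0 to 1 higher in KO MEST against KO sham, 6 to 11 lower in KO sham against WT sham, 12 to 14 lower and 2 to 4 higher in WT MEST against WT sham, and 10 to 15 higher and 2 to 3 lower in the difference. The libraries whose omission moved a count were KO MEST replicates 1, 3, 4 and 5 and WT MEST replicates 1, 3 and 5 in KO MEST against WT MEST, and KO sham replicates 2, 4 and 5 and KO MEST replicates 1, 2, 3 and 5 in KO MEST against KO sham. Over all genes, DESeq2 called 547 higher and 368 lower in KO MEST against KO sham (141 and 79 by limma) and 1085 lower in KO MEST against WT MEST (686 by limma), all 19 libraries in 1 fit called 317 and 214, no filter 42 and 15, and the replicate block 70 and 41 in KO MEST against KO sham. With 1 library left out, the all-gene counts in KO MEST against KO sham ranged from 9 (without KO sham replicate 2) to 287 (without KO sham replicate 3) higher and from 5 to 152 lower, and each of the 9 libraries moved a count by over 1.5 times. In KO MEST against WT MEST they ranged from 463 (without KO MEST replicate 2) to 1076 higher and from 336 to 860 lower, moved by over 1.5 times without KO MEST replicate 2, 3 or 5 or WT MEST replicate 1 or 4. In the other comparisons no library moved them that far. Same-numbered libraries deviated together with correlations from -0.0583 to 0.261, so the numbers were not taken as pairs. The rule kept 124 loci at 0.1 CPM and 30 at 0.5 CPM. Causes of these changes were not tested. Most members rest on under 1 CPM, where counting error is large and smaller changes were not detectable.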
